A study of Drosophila melanogaster with 28 samples.

Results

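The 6 body footprint libraries, of 28 libraries in all, compared Drosophila melanogaster bodies with and without Mettl1. They were taken by their labels and comprised 2 wild type (WT) libraries, 2 of a Mettl1 knockout line labelled KO1 and 2 of a knockout line labelled KO2. Footprints are the stretches of mRNA that translating ribosomes shield from nuclease, so a count reflects both the amount of an mRNA and the ribosomes on it. The series title places the work in the question of whether Mettl1-dependent m7G in tRNA is needed for male fertility and spermatogenesis. The labels give the WT strain as y1 w1118 and a knockout allele as Mettl1KO1, in a protocol written for testes. The allele of line KO2, the age and sex of the flies used for bodies, the number pooled and whether the 2 libraries of a group came from separate flies are not given in the sources used here. The p-values below therefore measure the spread between these samples, which may be technical.

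Mettl1 is the catalytic subunit of a methyltransferase that works with a WD-repeat partner, called wuho in flies, and places 7-methylguanosine in the variable loop of a subset of tRNAs. In mammals, loss of this mark lowers the level of some of those tRNAs and slows ribosomes at codons that they read. Spermatogenesis, the process named in the series title, uses many mRNAs that are made in male germ cells and hardly elsewhere, so a tissue with testis in it holds transcripts that other tissues lack.

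The deposited counts are per transcript identifier, and neighbouring transcripts with near-identical counts were joined into 15739 loci. Totals over these loci were 2851600 and 7640037 counts in WT, 2590172 and 3303978 in KO1, and 5418543 and 1579967 in KO2, so the second KO2 library was the shallowest and the second WT library the deepest. Between 7.43% and 8.62% of a library's counts fell on its top 10 loci. Across the 11185 loci tested, Pearson's r of log2 CPM (counts scaled to a common library total) was 0.982 between the WT libraries, 0.974 between the KO1 libraries, 0.964 between the KO2 libraries, 0.959 to 0.974 between libraries of different knockout lines and 0.929 to 0.963 between WT and knockout libraries. These correlations are descriptions across loci, which are not independent replicates. The 8 testis footprint libraries used beside them form set 1 and set 2, each of 2 WT and 2 knockout libraries. They came from testes of adult males aged 2 to 3 days, dissected in cycloheximide at 100 µg/ml, with 600 pairs a sample. The digit in their titles was taken to number replicates and may instead number knockout lines. The identifier of Mettl1 could not be paired with a gene name here, so neither the genotypes nor the body label could be checked, the first against the targeted transcript and the second against tissue markers.

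The mean effect of the 2 lines was a change at a small part of the translated loci, with more falls than rises. Of 11185 loci tested with edgeR's quasi-likelihood test at a Benjamini-Hochberg adjusted p under 0.05, 692 were called (6.19%). Of these, 239 rose (2.14%) and 453 fell (4.05%), and the median change over all loci tested was 0.00 on the log2 scale. With testis-typical loci, defined further on, left out of the fit, 160 loci rose and 140 fell, so the excess of falls was not seen without them. The rises had a median of 1.13 on the log2 scale and ran from 0.52 to 8.86. At least a 2-fold rise was seen at 148 of them and at least an 8-fold rise at 29. The falls had a median of -1.50 and ran from -8.85 to -0.48, with 342 falling at least 2-fold and 32 at least 8-fold. The risen loci together held 11883 and 11048 CPM in WT, 25575 and 23274 in KO1, and 28866 and 26736 in KO2. The fallen loci together held 46425 and 39560 CPM in WT, 22242 and 23609 in KO1, and 19623 and 19382 in KO2. Those sums follow from the calls and are descriptions.

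The count rested on single libraries. It was 345 without WT replicate 1, 211 without WT replicate 2, 454 without KO1 replicate 1, 451 without KO1 replicate 2, 938 without KO2 replicate 1 and 1001 without KO2 replicate 2. Of the 692 calls, 193 were also called without WT replicate 2 and 675 without KO2 replicate 2.

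**Figure D1:**
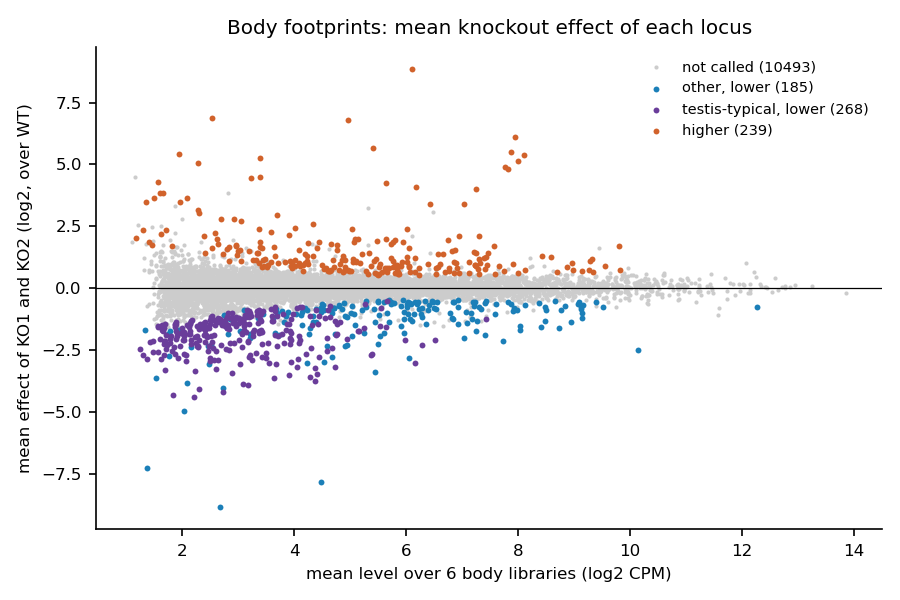
Each point is 1 of the 11185 body loci tested, placed by its mean level over the 6 libraries (log2 CPM, horizontal) and the mean effect of KO1 and KO2 over WT (log2, vertical). The 268 testis-typical loci that fell lie mostly at low body levels, and the 185 other loci that fell and the 239 that rose spread over the whole range of levels.

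Each line was also set against WT on its own. KO1 against WT called 380 loci (3.4%), 130 higher (1.16%) and 250 lower (2.24%). KO2 against WT called 548 (4.9%), 207 higher (1.85%) and 341 lower (3.05%). These counts moved widely with the libraries in the fit. KO1 called 829 loci when fitted with WT alone, 202 and 114 without WT replicates 1 and 2, 156 and 180 without KO1 replicates 1 and 2, and 810 and 809 without KO2 replicates 1 and 2. KO2 called 302 and 183 loci without WT replicates 1 and 2, and 468 to 718 without 1 of the knockout libraries. The KO1 and KO2 contrasts share the same WT libraries, so the match between them carries the noise of those libraries and is given as counts only. Among the loci that rose in the mean effect, 88 were called in both lines, 32 in KO1 alone, 88 in KO2 alone and 31 in neither line. Among the loci that fell, 196 were called in both lines, 40 in KO1 alone, 131 in KO2 alone and 86 in neither. The median rise was 1.10 in KO1 and 1.24 in KO2, and the median fall was -1.37 in KO1 and -1.64 in KO2, on the log2 scale.

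The strictest agreement asked for a call in the mean effect and in each line, with all 4 knockout libraries beyond both WT libraries. It held at 282 loci (2.52%), 86 of them higher (0.769%) and 196 lower (1.75%). All 4 knockout libraries lay beyond both WT libraries at 25.2% of all loci tested, and at 224 of 239 risen and 439 of 453 fallen loci. The loci in agreement had a median change of 1.66 where they rose and -2.11 where they fell. The agreement count was 164 without WT replicate 1, 92 without WT replicate 2, 129 without KO1 replicate 1, 154 without KO1 replicate 2 and 444 without KO2 replicate 2.

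The naming rule prints by identifier the 2 largest rises and the 2 largest falls in agreement, among loci with a mean log2 CPM of at least 3. FBtr0346092 had the largest fall. It held 45.2 and 68.7 CPM in WT, 0.38 and 0 in KO1, and 0.368 and 0 in KO2, which is 120 and 566 counts in WT against 1, 0, 2 and 0 counts in the knockout libraries. The groups did not overlap, which the agreement rule requires. The locus passed the low-count filter through the WT libraries alone. The fitted change was -7.84 (SE 0.388; edgeR adjusted p = 2.23e-06), a size that depends on the prior count because the knockout libraries are at or near 0, and that ran from -9.44 to -7.33 when 1 library was left out. Each SE given here and below is the absolute log2 change divided by the square root of the test's F statistic. It is not a separate estimate, and it does not measure precision where counts are at or near 0. In testis the locus was at or near 0 in both genotypes, at 0 CPM in both set 1 WT libraries and 0.188 and 0.37 CPM in set 2 WT, too little to compare the genotypes there.

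FBtr0079379 had the next largest fall. It held 17.7 and 20.8 CPM in WT, 0.38 and 3.77 in KO1, and 0.92 and 0 in KO2. All 4 knockout libraries lay below both WT libraries, which the agreement rule requires. The fitted change was -3.93 (SE 0.429, edgeR adjusted p = 0.00019). With 1, 12, 5 and 0 counts in the knockout libraries its size is loose, at -6.14 without KO2 replicate 1 and -5.15 without KO1 replicate 2. In testis the same locus held 333 and 356 CPM in set 1 WT against 32.9 and 35.5 in set 1 knockout, and 548 and 748 CPM in set 2 WT against 78.8 and 51.6 in set 2 knockout. Testis RNA-seq of set 1 was higher in the knockout, at 404 and 338 CPM against 233 and 238 in WT. The footprint fall was thus present in body and testis, and in testis it did not go with a lower RNA level.

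FBtr0075174 had the largest rise. It held 0.376 and 0.121 CPM in WT, 154 and 1.88 in KO1, and 176 and 78.7 in KO2, from 1 and 1 counts in WT. KO1 replicate 2 was near the WT level while the other 3 knockout libraries were high. With 1 and 1 counts in WT, the locus passed the low-count filter through knockout libraries alone. The fitted change was 8.86 (SE 1.75; edgeR adjusted p = 0.00969), and 6.21 without KO1 replicate 1. Without WT replicate 1 or without WT replicate 2 the call was lost, at edgeR adjusted p = 0.0981 and 0.233. In testis the locus was low, at 1.09 and 0 CPM in set 1 WT against 5.98 and 5.54 in the knockout, and 0.0941 and 0.185 CPM in set 2 WT against 1.08 and 2.44 in the knockout.

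FBtr0087437 had the next largest rise, at 7.53 and 6.55 CPM in WT, 348 and 22.3 in KO1, and 560 and 484 in KO2. KO1 replicate 2 again stood far below the other knockout libraries. The fitted change was 5.48 (SE 0.902; edgeR adjusted p = 0.00293), and 3.97 without KO1 replicate 1. The call was lost without WT replicate 1 or without WT replicate 2 (adjusted p = 0.0607 and 0.12). The testis libraries went the other way. There the locus held 164 and 230 CPM in set 1 WT against 50.8 and 47.6 in the knockout, and 83.6 and 82.8 CPM in set 2 WT against 12 and 24.9 in the knockout. Set 1 testis RNA-seq was lower in the knockout as well, at 9.54 and 7.44 CPM against 41.9 and 52.5 in WT.

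**Figure D2:**
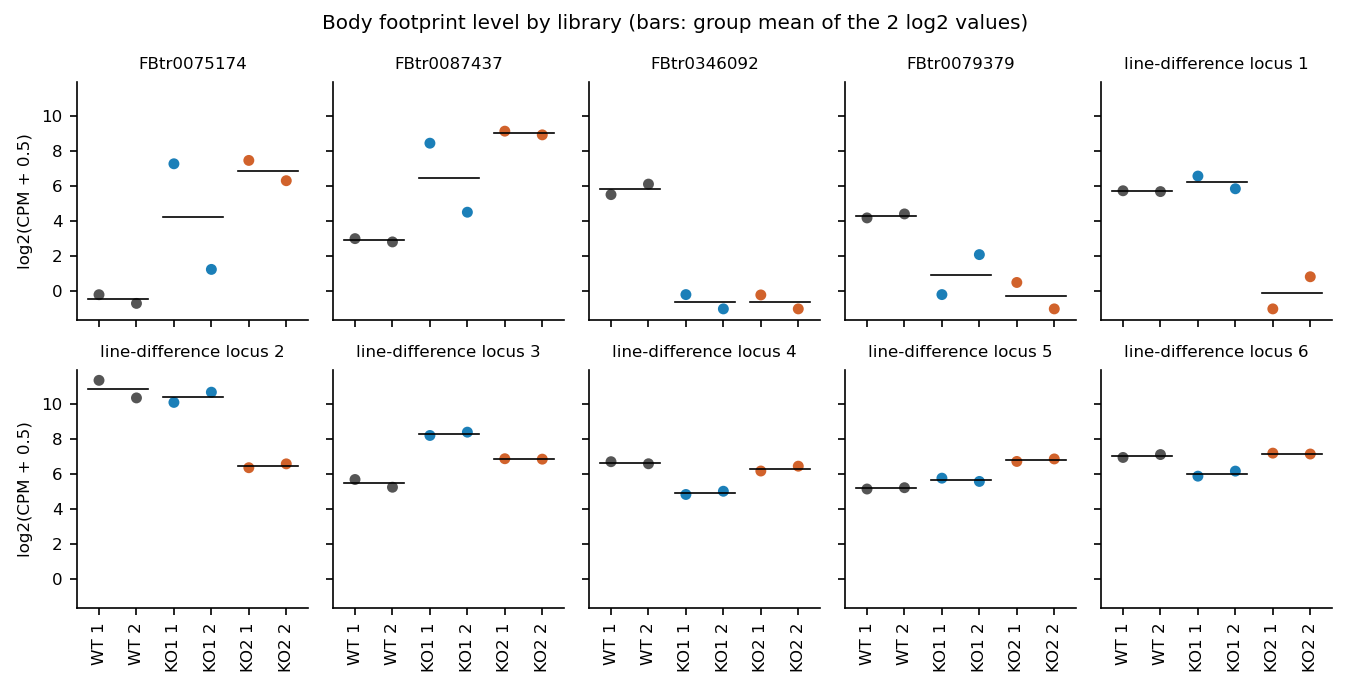
Footprint level in each of the 6 body libraries, as log2(CPM + 0.5), for the 2 loci with the largest rise, the 2 with the largest fall and the 6 loci called between the lines; bars are group means of the 2 log2 values. KO1 replicate 2 lies near WT at both risen loci, and line-difference loci 1 and 2 are low in the KO2 libraries alone.

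The pattern of both named rises was shared by a set of loci. At 13 of the 239 risen loci, KO1 replicate 2 lay at least 4-fold below the lowest of the other 3 knockout libraries, against 0 loci for KO1 replicate 1, 0 for KO2 replicate 1 and 3 for KO2 replicate 2. The median level over these 13 loci was 9.03 and 6.07 CPM in WT, 225 and 10 in KO1, and 439 and 216 in KO2. KO1 replicate 2 thus lay close to WT and the other 3 libraries lay far above it. Their summed level was 106 and 72 CPM in WT, 2874 and 135 in KO1, and 5418 and 3243 in KO2. They were among the largest fitted rises, from 3.39 to 8.86 on the log2 scale, with adjusted p of 0.00293 to 0.0263 and an SE of 0.713 to 1.75, against a median SE of 0.197 over all loci tested. All 13 were called in KO2 and 7 of them in KO1. They made up 6 of the 10 largest rises under the naming rule. Their entries in the deposited length column ran from 43 to 229 with a median of 97, against a median of 440 over all loci tested. The 13 loci were picked after their values were seen, and no test of them as a set is given.

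**Figure D3:**
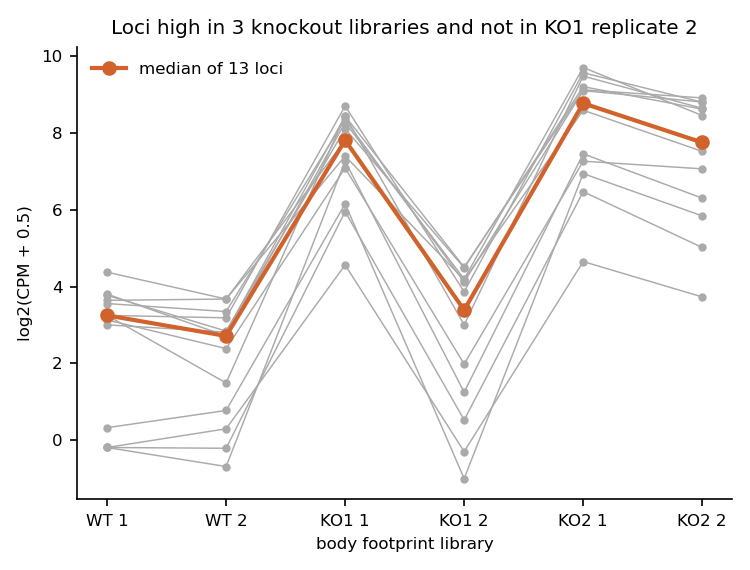
Levels of the 13 loci in each body library, as log2(CPM + 0.5), with 1 grey line per locus and their median in colour. The median is 9.03 and 6.07 CPM in WT and 10 CPM in KO1 replicate 2, and 216 to 439 CPM in the other 3 knockout libraries.

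Of the 453 fallen loci, 268 were typical of testis by the rule used here, a number that rests on its threshold. A locus was called testis-typical when its mean WT testis footprint level was at least 50 CPM and at least 16-fold its mean WT body level, a rule that no knockout library enters. The WT body libraries enter both this rule and the knockout contrast, so what follows is a description with no test. Of 835 testis-typical loci tested, 268 fell (32.1%), 12 rose and 555 were not called, against 4.05% of all loci that fell. Their median change was -0.56 on the log2 scale, with a median of -0.40 in KO1 and -0.70 in KO2, and 652 of 835 had a fitted change below 0. With a 32-fold threshold, 145 loci were testis-typical and 38 of them fell (26.2%). Testis-typical loci made up 137 of the 196 falls on which both lines agreed. They also made up 9 of the 10 largest falls under the naming rule.

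The testis-typical loci had similar ratios of testis to body level. The ratio of WT testis to WT body CPM had a median of 26.5-fold and quartiles of 22.9-fold and 30.4-fold, with the lower end set by the rule. Their summed level was 10420 and 12561 CPM in WT, 7712 and 8426 in KO1, and 7056 and 8257 in KO2, so all 4 knockout libraries lay below both WT libraries. Fewer cells of a type and less RNA per cell cannot be told apart in such bulk samples.

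The body change of these loci followed their testis change, measured in 8 testis footprint libraries that the body contrast does not use. Across the 835 loci, the mean body effect and the testis change averaged over sets 1 and 2 had a Pearson's r of 0.82 and a Spearman's rho of 0.87, and r was 0.81 with set 1 and 0.80 with set 2. These are descriptions across loci, and the WT testis level also chose the loci. Across the 9423 other loci with at least 1 CPM in both testis sets, Pearson's r was 0.27. The 2 groups of loci differ in testis level, since the testis-typical rule asks for 50 CPM in WT testis. Set 1 knockout replicate 1 held only 334639 counts over all loci, so its values at low levels are loose. The 2 values of r are therefore not like for like. The body change lay below the testis change at 748 of 835 loci, by a median of 0.50 on the log2 scale. Testis levels were not scaled in the way that body levels were. Over all loci the median testis change was 0.20 in set 1 and 0.16 in set 2, against 0.00 in each line in body. Part of the gap is therefore shared by loci at large.

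The testis-typical loci that fell in body were mostly those lower in knockout testis. Both testis knockout libraries were below both WT libraries in each testis set at 239 of the 268 that fell in body (89.2%), and at 97 of the 555 not called in body (17.5%). It held at 338 of all 835 testis-typical loci (40.5%) and at 10% of 10258 loci that reached 1 CPM in both testis sets. Of 129 testis-typical loci whose testis change was a fall of 1 to 2 on the log2 scale, 119 fell in body (92.2%). Of 276 with a testis fall of up to 1, 96 fell in body (34.8%). Of 376 that were higher in knockout testis, 5 fell in body (1.33%), 10 rose, and the median body change was -0.06. At 2 testis-typical loci the direction was opposite, with a rise in body and a testis change below -1, and FBtr0087437 was one of them. The part that testis RNA in the body samples played in the falls was not tested.

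**Figure D4:**
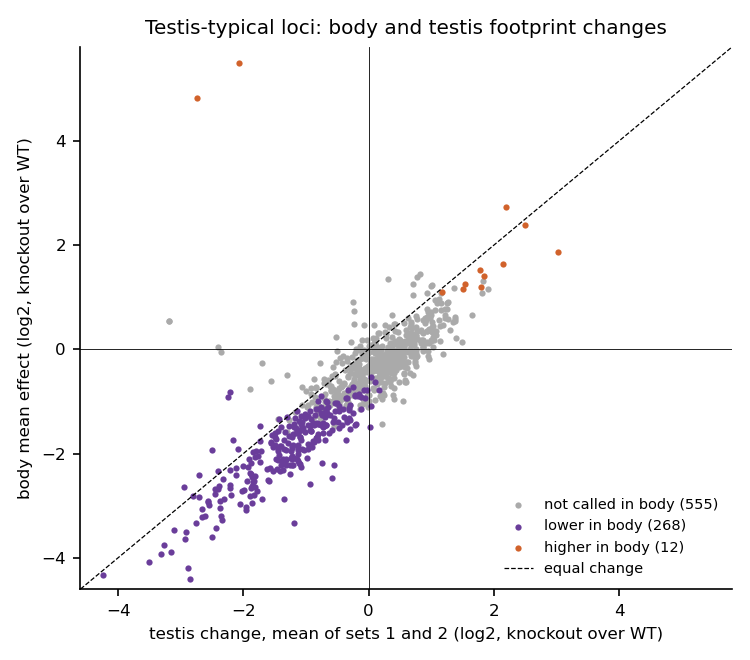
Each point is 1 of 835 testis-typical loci, placed by its testis footprint change averaged over sets 1 and 2 (log2, horizontal) and its mean body effect (log2, vertical); the dashed line marks equal change. The 268 loci that fell in body lie at the left and most points lie below the line, by a median of 0.50. Testis levels were not scaled as body levels were, and part of this gap is shared by loci at large.

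The other 185 fallen loci did not meet the testis-typical rule. Their median change was -1.01 on the log2 scale, with -1.02 in KO1 and -0.99 in KO2. Their summed level was 41571 and 33629 CPM in WT, 20595 and 21489 in KO1, and 18334 and 17833 in KO2, and they therefore held most of the footprints lost at called loci. WT body was at least 8-fold above WT testis at 63 of them (34.1%), against 10.7% of all loci tested. In testis, 150 of them had at least 1 CPM in both sets. Both knockout libraries were below both WT libraries in each set at 28 of these (18.7%, against 10% of 10258 such loci). Both were above at 7 (4.67%, against 22.1%). Testis falls in both sets were thus more frequent than among all such loci, and testis rises in both sets less frequent. The sets differed in size of change. The median testis change of these other fallen loci was -0.96 in set 1 and 0.09 in set 2, against 0.20 and 0.16 over all loci. Both lines agreed on the body fall at 59 of the 185 loci, with a median of -1.82.

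At 2 loci, footprints were seen in WT and in no knockout library. The first held 38 and 122 counts in WT (14.3 and 14.8 CPM) and 0 in all 4 knockout libraries. Taking a floor of 3 counts in each knockout library, it was at least 12.8-fold lower (edgeR adjusted p = 3.59e-05). The second held 11 and 43 counts in WT (4.14 and 5.22 CPM) and 0 in the knockout libraries, and was at least 4.11-fold lower (adjusted p = 0.000549). No WT testis footprint library held more than 1.09 CPM of the first or 0.724 CPM of the second. The reverse, 0 counts in both WT libraries with at least 10 counts in each knockout library, was seen at 0 loci. These loci were chosen for their zeros after the values were seen. With 0 counts in all 4 knockout libraries, they passed the low-count filter through WT alone. Their adjusted p-values therefore add no support beyond the counts.

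Few of the risen loci were testis-typical, as was the case among all loci tested. The rule was met by 12 of the 239 risen loci and by 835 of all 11185 loci tested. WT body was at least 8-fold above WT testis at 54 of the risen loci (22.6%, against 10.7% of all loci tested). In testis, 182 of the risen loci had at least 1 CPM in both sets. Both knockout libraries were above both WT libraries in each set at 49 of these (26.9%, against 22.1% of 10258 loci that reached 1 CPM in both sets), and below at 13 (7.14%, against 10%). These shares, which ask for both sets, were near those of all such loci. The sets differed in size of change. The median testis change of the risen loci was 0.20 in set 1 and 1.12 in set 2, against 0.20 and 0.16 over all loci.

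A larger share of loci was called where the deposited length column was low. The loci were put into 5 bins of like size by that column. In the lowest bin, with entries of 13 to 212, 10.5% were called, followed by 7.17%, 5.78%, 4.37% and, for entries of 836 to 22940, 3.09%. With testis-typical loci left out, the share that rose ran from 4.9% in the lowest bin to 0.888% in the highest, and the share that fell from 2% to 1.26%. The median level was 18.4 CPM in the lowest bin and 21.5 CPM in the highest. In 5 bins by level, again without testis-typical loci, the share that rose was 1.55%, 1.39%, 1.67%, 2.89% and 3.24% from the lowest level to the highest, and the share that fell was 1.09%, 0.842%, 1.49%, 1.99% and 3.28%. Both shares were larger in the bins of higher level. No test of these trends was made.

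**Figure D5:**
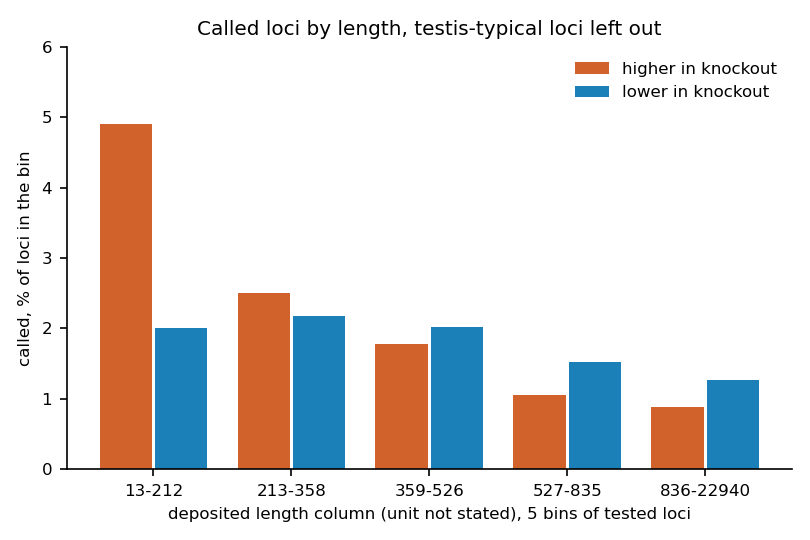
Bars give the share of loci called higher and called lower in the mean effect, within 5 bins of the tested loci by the deposited length column, with testis-typical loci left out. The share that rose goes from 4.9% in the lowest bin to 0.888% in the highest.

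The difference between the lines was tested directly in the contrast of KO2 against KO1. WT has no weight in this contrast, but the WT libraries enter the low-count filter, the scaling and the shared estimate of spread. The contrast called 6 loci (0.0536%), 3 higher in KO2 (0.0268%) and 3 lower (0.0268%), and 677 loci (6.05%) had an unadjusted edgeR p under 0.05. The median SE of that difference was 0.241 on the log2 scale. The count was 3 without WT replicate 1, WT replicate 2 or KO1 replicate 2, 20 without KO1 replicate 1, 70 without KO2 replicate 1, 148 without KO2 replicate 2, and 190 without the low-count filter, so the 6 loci are no full account of where the lines differ. At line-difference locus 1, the level was 52.7 and 51 CPM in WT, 94.6 and 57.1 in KO1, and 0 and 1.28 in KO2. Both KO2 libraries lay far below all others, and the difference was -7.87 (SE 0.563; edgeR adjusted p = 0.000137), a size that depends on the prior count and ran from -11.38 to -5.84 when 1 library was left out. At line-difference locus 2, it was 2600 and 1298 CPM in WT, 1087 and 1627 in KO1, and 81.9 and 95.4 in KO2. The difference was -3.94 (SE 0.347; adjusted p = 0.000653). The mean effect called both loci lower, and in each case the fall was in KO2, while KO1 did not pass the test (KO1 against WT, edgeR adjusted p = 0.367 and 0.487).

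The other 4 line differences were smaller. Line-difference locus 3 rose in both lines, from 51.2 and 37.6 CPM in WT to 294 and 335 in KO1 and 117 and 115 in KO2. Locus 4 fell in KO1, to 28.1 and 32 CPM from 104 and 95.8 in WT, and stood at 71.8 and 87 CPM in KO2. Locus 5 rose in KO2, to 105 and 116 CPM from 35 and 36.9 in WT, and stood at 54 and 47.4 CPM in KO1. Locus 6 fell in KO1, to 58.5 and 71.5 CPM from 123 and 138 in WT, and stood at 146 and 141 CPM in KO2. The KO1 and KO2 libraries did not overlap at any of these 4 loci, which were picked for their difference between the lines. The differences between lines were -1.44, 1.38, 1.12 and 1.14 on the log2 scale, with edgeR adjusted p of 0.0167, 0.0167, 0.0358 and 0.0452. None of these 4 passed the test without KO1 replicate 2, where the adjusted p ran from 0.205 to 0.449, and loci 4, 5 and 6 did not pass without WT replicate 1, WT replicate 2 or KO1 replicate 1 either.

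The reference gene table named 43 of the identifiers, and 37 of these loci were tested. The call rate among them was 1 of 37 (2.7%, against 6.19% of all loci), and their changes ran from -0.77 to 0.91 with a median of 0.00. The called locus was sle, which encodes a nucleolar protein. It held 18.4 and 25.2 CPM in WT, 12.5 and 13.2 in KO1, and 12.9 and 14.7 in KO2. All 4 knockout libraries were below both WT libraries, as at 12.9% of all loci. The change was -0.77 (SE 0.186, edgeR adjusted p = 0.0294). It was testis-typical, at 565 and 460 CPM in WT testis of set 1. Without WT replicate 2 its change was -0.48 and the call was lost (edgeR adjusted p = 0.44).

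The other named loci did not pass the test in the mean effect. The locus of Pepck1, the enzyme that starts gluconeogenesis, which the table lists together with CG45087, held 1088 and 1306 CPM in WT, 1647 and 2307 in KO1, and 1582 and 1405 in KO2 (0.52, SE 0.198; edgeR adjusted p = 0.184). Its 4 knockout libraries lay above both WT libraries, as at 12.3% of all loci. SuUR, which holds back replication in polytene heterochromatin, held 2.26 and 3.03 CPM in WT and 4.18 to 7.04 CPM in the knockout libraries (0.91, SE 0.343; edgeR adjusted p = 0.178). LanA, a laminin chain of basement membranes, held 144 and 99.4 CPM in WT and 73.3 to 99.6 CPM in the knockout libraries (-0.44, SE 0.168; adjusted p = 0.185).

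Further named genes had smaller fitted changes, and none passed the test. The changes of mio, Wdr59 and Wdr24, subunits of the GATOR2 complex that promotes TORC1 signalling, were 0.27, 0.31 and 0.01 with SEs of 0.193, 0.193 and 0.265. Those of alpha-Spec, a chain of the spectrin cytoskeleton, and Uba1, the ubiquitin-activating enzyme, were -0.10 (SE 0.151) and -0.12 (SE 0.14). That of His4r, a histone H4 gene, was 0.21 (SE 0.157), and those of the chromatin proteins kis and HDAC3 were -0.03 (SE 0.134) and 0.04 (SE 0.308). The change of Fatp1, a fatty acid transporter, was -0.16 (SE 0.138).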

How the data were processed

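The authors deposited whole-number counts per FlyBase transcript with 1 further number per transcript, used here as a length of unstated unit. The submitters' processing notes name STAR 2.7.0a, CASAVA 1.8 and the build dm6; how reads shared by isoforms, strands or near-identical genes were counted is not given in the sources used here, so such loci are uncertain. Per the labels' protocols, footprint libraries used preadenylated linkers and in vitro transcription.

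Of 34703 transcripts, 30197 had a footprint count. Those at most 50 lines apart whose summed count difference was at most 0.1 of the larger total were joined, which gave 15739 loci, 7033 of several transcripts; a gene can enter more than once. Each locus is represented by its transcript with most counts.

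The deposited counts of 2 WT, 2 KO1 and 2 KO2 libraries were fitted together with edgeR 4.0.16 in R 4.3.3 (TMM scaling, filterByExpr at a minimum count of 10, quasi-likelihood F-test, Benjamini-Hochberg adjustment over the 11185 loci tested, threshold 0.05). The mean effect is the average of both line contrasts. Changes are log2 knockout over WT, body CPM are scaled by TMM, and testis CPM are not; ratios of testis to body add 0.5 CPM. The script was tested on simulated data. Alternatives included the DESeq2 1.42.0 Wald test; figures used matplotlib 3.10.9.

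The members, lists and definitions were chosen with earlier results of these data known. Loci were named by identifier where both lines agreed and mean log2 CPM was at least 3, the 2 largest each way; the 6 loci called between lines are numbered by adjusted p. The reference gene table paired 43 identifiers with names, 28 of them with several genes. Planned gene and cell type lists were therefore not analysed. Body RNA-seq was not used because it is shallow.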

Additional observations from a re-analysis of the deposited data

Results flagged for a closer look

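At FBtr0087437, KO1 replicate 2 stood apart from the other 3 knockout libraries, with a gap of 0.852 of the range of the 4 log2 values. The locus was picked for its large rise and the 4 libraries come from 2 lines, so no chance rate is given. The line difference, KO2 minus KO1, passed the edgeR test at 6 loci. It was -7.87 at line-difference locus 1 and -3.94 at locus 2, where the KO2 libraries alone were low. It was -1.44 at locus 3, where both lines rose and KO1 rose more, 1.38 at locus 4 and 1.14 at locus 6, where KO1 fell, and 1.12 at locus 5, where KO2 rose. No cause of these differences was tested.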

How the results depend on the processing

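The loci followed through the alternatives were FBtr0075174, FBtr0087437, FBtr0346092, FBtr0079379, sle and the 6 line-difference loci. None of them changed sign under any alternative that tested it. The other named genes were not followed. The balance of the mean effect, 239 higher and 453 lower, became 160 higher and 140 lower with testis-typical loci left out. For the mean effect, KO1, KO2, the line difference and the agreement, the counts were 692, 380, 548, 6 and 282. Without a low-count filter they were 1155, 856, 921, 190 and 522. With a mean of at least 50 counts they were 313, 197, 239, 5 and 137. With transcripts not collapsed, the mean effect called 1252, KO1 678, KO2 924 and the agreement 479. The DESeq2 Wald test called 401 in the mean effect, 392 of them shared, 332 in KO2 and 14 in the line difference. Fitting WT and KO1 alone gave 829 for KO1. With testis-typical loci left out, which was chosen after seeing the data, the mean effect called 300, KO1 174, KO2 219 and the agreement 109. Leaving out 1 library gave 211 to 1001 for the mean effect, 114 to 810 for KO1, 183 to 718 for KO2, 3 to 148 for the line difference and 92 to 444 for the agreement; the lowest was without WT replicate 2 in each but the line difference, where 3 were called without either WT replicate or KO1 replicate 2. The cause was not tested. A 32-fold threshold left 38 testis-typical loci that fell, of 145, in place of 268; the other definitions tried gave 253 to 283.

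The replicate numbers were not treated as pairs in the main fit. The differences between replicates 1 and 2 correlated weakly, at 0.0859 (WT and KO1), 0.122 (WT and KO2) and -0.0595 (KO1 and KO2). Such values across loci do not settle whether libraries of like number were handled together. With the replicate block the mean effect called 665 loci, 608 of them shared, and line-difference loci 5 and 6 were no longer called (adjusted p = 0.0558 and 0.0576).

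FBtr0346092 and FBtr0079379 kept their calls under all alternatives that tested them, and line-difference loci 1 and 2 under all 13. Locus 3 lost its call in 1 of 13, locus 4 in 4, locus 5 in 5 and locus 6 in 6, and sle in 6 of 13 (adjusted p up to 0.44). Each group had 2 libraries, the shallowest of 1579967 counts.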
